A study of Mus musculus with 6 samples.

Results

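The inhibitor of DNA binding genes *Id1*, *Id2*, *Id3* and *Id4*, the mesenchymal factors *Twist1*, *Twist2* and *Scx* (scleraxis), and the E-protein genes *Tcf3*, *Tcf4* and *Tcf12* were followed in the proximal mesenchyme of the mouse incisor after deletion of *Arid1b*, a subunit of the BAF chromatin-remodeling complex. They were chosen by gene name as the Id inhibitors, Twist factors, scleraxis and their E-protein partners, and all 10 were found among the 19270 genes of the table. *Id1*, *Id3* and *Twist2* had lower group means in the *Arid1b* mutant than in the control, with ratios of mutant to control of 0.791, 0.800 and 0.757. The means of the E-protein genes lay within 6% of the control, and *Twist1* and *Id4* were higher by 16.5% and 7.08%. No error between mice is given for these values, because values per mouse were not analysed here and the authors' own comparison was not used.

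Proteins of this class share a helix-loop-helix domain through which they pair. E proteins are made in nearly every tissue and bind DNA at the E-box, a short motif, either with each other or with a tissue-restricted partner such as TWIST1, TWIST2 or SCX. Id proteins keep the helix-loop-helix but lack the basic region that contacts DNA, so an E protein paired with an Id protein does not bind. *Id1*, *Id2* and *Id3* are well-known direct targets of BMP signaling through SMAD1 and SMAD5, and Id proteins are known for holding progenitor cells back from differentiation. TWIST1 is needed in the mesenchyme of the head, where it restrains bone formation through RUNX2, and SCX marks tendon and ligament progenitors.

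RNA was sequenced from 3 control and 3 mutant mice. The animals were 1 month old and the tissue was taken on day 4 after tamoxifen. The mutants carried *Gli1-CreER;Arid1b fl/fl*, so tamoxifen activates Cre only in *Gli1*-expressing cells, in both the mesenchymal and the epithelial lineage, and cells outside the *Gli1* lineage keep the gene. The controls also received tamoxifen. The labels give their genotype as wild type, whereas the study's methods name *Arid1b fl/fl* mice as controls, and the presence of the floxed alleles in these 3 animals was not settled here.

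Promoter sequence is shown for the Id and Twist genes, whose members differed in direction within each family. The windows run from 250 bases before to 50 bases after the RefSeq start site on GRCm38.p6, written 5′ to 3′ on the strand of the gene. Capitals mark the E-box CANNTG and the GC-rich element GGCGCC, to which SMAD1 and SMAD5 are known to bind. The *Id3* window is chr4:136143572-136143871 on the plus strand, the *Id2* window is chr12:25096043-25096342 on the minus strand and the *Id4* window is chr13:48260866-48261165 on the plus strand. The *Twist2* window is chr1:91801211-91801510 and the *Twist1* window is chr12:33957421-33957720, both on the plus strand.
Id3: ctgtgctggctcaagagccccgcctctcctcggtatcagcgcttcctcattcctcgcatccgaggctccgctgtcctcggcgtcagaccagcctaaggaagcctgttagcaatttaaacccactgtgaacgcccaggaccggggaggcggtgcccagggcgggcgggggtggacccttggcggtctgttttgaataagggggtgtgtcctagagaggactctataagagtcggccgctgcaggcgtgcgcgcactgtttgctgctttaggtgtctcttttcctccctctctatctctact
Id2: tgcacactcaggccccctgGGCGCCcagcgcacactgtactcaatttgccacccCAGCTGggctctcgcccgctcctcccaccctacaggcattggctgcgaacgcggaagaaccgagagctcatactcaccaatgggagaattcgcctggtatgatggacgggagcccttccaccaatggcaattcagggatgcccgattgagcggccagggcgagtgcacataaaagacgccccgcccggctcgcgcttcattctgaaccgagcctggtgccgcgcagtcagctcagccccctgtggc
Id4: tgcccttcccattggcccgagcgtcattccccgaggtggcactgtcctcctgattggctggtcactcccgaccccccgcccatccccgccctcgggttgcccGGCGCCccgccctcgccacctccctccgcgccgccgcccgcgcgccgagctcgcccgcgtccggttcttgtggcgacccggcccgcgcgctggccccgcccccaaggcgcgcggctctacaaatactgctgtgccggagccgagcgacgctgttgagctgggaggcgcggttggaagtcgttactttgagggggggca
Twist2: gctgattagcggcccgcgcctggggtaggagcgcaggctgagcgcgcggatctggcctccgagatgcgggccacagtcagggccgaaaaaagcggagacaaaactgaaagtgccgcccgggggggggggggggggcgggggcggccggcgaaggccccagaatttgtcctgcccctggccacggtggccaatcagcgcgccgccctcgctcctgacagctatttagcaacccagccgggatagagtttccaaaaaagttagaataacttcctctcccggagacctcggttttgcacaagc
Twist1: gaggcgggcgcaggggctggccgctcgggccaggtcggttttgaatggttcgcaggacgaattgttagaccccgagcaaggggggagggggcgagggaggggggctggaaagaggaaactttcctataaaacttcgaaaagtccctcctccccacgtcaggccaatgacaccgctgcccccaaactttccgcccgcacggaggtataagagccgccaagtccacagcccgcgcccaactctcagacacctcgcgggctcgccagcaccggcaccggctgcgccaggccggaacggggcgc

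The *Id2* window held 1 E-box, at position -196 from the start site, and 1 GGCGCC, at -231. The *Id4* window held 1 GGCGCC at -148. This window ends at 48261165, before the GENCODE start of *Id4* at 48261228, so the position counts from a RefSeq start site upstream of that gene model. In *Id3*, *Twist2* and *Twist1* the letters of both motifs were missing from the window. Whether any of these motifs bears on the group means was not tested, and *Id1* had no window to compare. Both strands were searched in 32851 windows of the same length, of which 72.3% held CANNTG and 11.9% held GGCGCC. The SMAD4 box GTCTAGAC, held by 0.213% of all windows, was in no window of a member. Its short form CAGAC, held by 49.6%, occurred at -167 and -68 in *Id3*, at -9 in *Twist1* and at -50 in a *Tcf12* window. None of these motifs contains another. *Tcf3* held 1 E-box at -54, and each of the 3 *Tcf12* windows held at least 1. Windows of 7 of the 10 genes were searched. *Id1* and *Scx* had no entry, and *Tcf4* was not analysed for motifs here.

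The values are a normalized signal, scaled by the authors so that the upper quartile of every library lay at 44.57 to 44.58. Depth was estimated at 39087724 to 39868312 reads in the control libraries and at 37123643 to 49594469 in the mutant libraries. The targeted gene *Arid1b* (chr17:4994332-5347656) had a mean of 97.6 in the control and 38.0 in the mutant, a ratio of 0.390. Markers of dental mesenchyme were present, with *Col1a1* at 21211 and *Dspp*, of odontoblasts, at 5179 in the control. Markers of dental epithelium were present as well, and 10 of 11 were higher in the mutant, their summed signal going from 1588 to 10296. All 4 Y-linked transcripts listed were close to the lowest control mean (0.0259 to 0.0434) and had mutant means of 25.3 to 65.3, while *Xist* went from 3368 to 814, so the sexes were not balanced between the groups and sex and genotype cannot be told apart in these means.

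**Figure D1:**
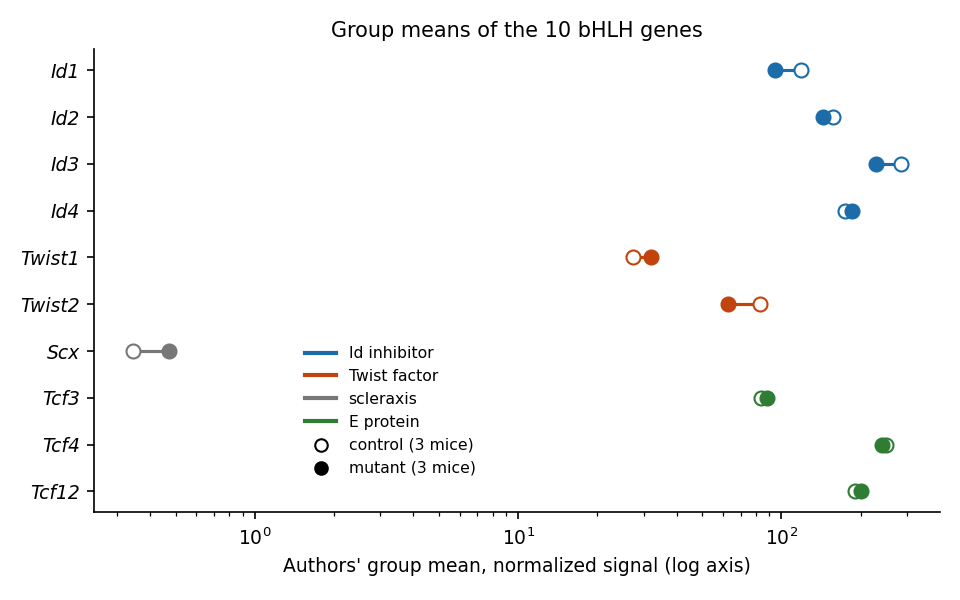
Authors' group means (normalized signal, log axis) of the 10 genes in control (open circles) and *Arid1b* mutant (filled circles), with a line joining both groups of a gene and colours for the families. *Id1*, *Id3* and *Twist2* lie lower in the mutant, *Twist1* and *Id4* lie slightly higher, the E-protein genes nearly coincide, and *Scx* is below 0.5 in both groups.

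The first question was whether the Id inhibitors changed together. *Id1* (chr2:152736251-152737410) had an authors' mean of 119.1 in the control and 94.3 in the mutant, a log2 fold change of -0.34. *Id3* (chr4:136143497-136145755) went from 285.3 to 228.3, a log2 fold change of -0.32. These 2 genes differed by nearly the same factor, so that the log2 ratio of *Id3* to *Id1* differed between the groups by only 0.016. *Id2* (chr12:25093799-25097140) went from 156.9 to 144.3, a log2 fold change of -0.12. *Id4* (chr13:48261228-48266026) was the exception in the family, at 173.7 in the control and 186.0 in the mutant, a log2 fold change of 0.10. The ratio of *Id1* to *Id4* was thus lower in the mutant, a difference of -0.44 on the log2 scale, and that of *Id3* to *Id4* differed by -0.42.

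These differences are far above counting noise at this depth, which says nothing about the spread between mice. With reads estimated from the signal, *Id1* rests on 13817 control and 12254 mutant reads summed over the 3 libraries, and *Id3* on 33092 and 29683. Exact 95% intervals that cover counting error alone run from -0.37 to -0.30 for *Id1*, from -0.34 to -0.30 for *Id3*, from -0.15 to -0.09 for *Id2* and from 0.07 to 0.13 for *Id4* on the log2 scale. Fewer cells of a type and less RNA per cell cannot be told apart in bulk tissue.

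The study's methods called genes by a 1.5-fold threshold together with an FDR limit, and the fold change alone was used here. No Id gene passed 1.5-fold, nor did any of the other members, giving 0 of 10 beside 13.2% of all genes. That background is made up largely of weakly expressed genes, since only 3.06% of the 10311 genes with a mean of 10 or more passed 1.5-fold. At a lower threshold of 1.2-fold, 4 of 10 members passed, *Id1*, *Id3* and *Twist2* with a lower and *Scx* with a higher mutant mean, beside 31.7% of all genes in either direction. The 3 lower members compare with 15.7% of all genes that were lower by over 1.2-fold. Among genes with a mean of 10 or more, 3 of 9 members passed 1.2-fold, all of them lower, beside 12.9% of such genes in either direction and 6.37% lower. This one-sided split depended on the scaling. With the groups scaled to the same total, an alternative chosen after seeing the data at this threshold, *Id3* fell just short of 1.2-fold (log2 fold change -0.26) and *Twist1* passed it on the higher side (0.28), whereas *Id1* (-0.28) and *Twist2* (-0.34) still passed. The split was then 2 lower and 2 higher among all 10 members, beside 32.2% of all genes in either direction and 12.7% lower, and 2 lower and 1 higher among the 9 better expressed members, beside 13.5% and 4.22% of such genes. A difference at least as large as that of *Id1* was found in 8.67% of genes with a mean of 10 or more, as large as that of *Id3* in 9.45%, as large as that of *Id2* in 36.0% and as large as that of *Id4* in 43.6%. The Id family had a median log2 fold change of -0.22, against 0.0022 over all genes, and all 10 members had a median of 0.01 with 5 higher and 5 lower.

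**Figure D2:**
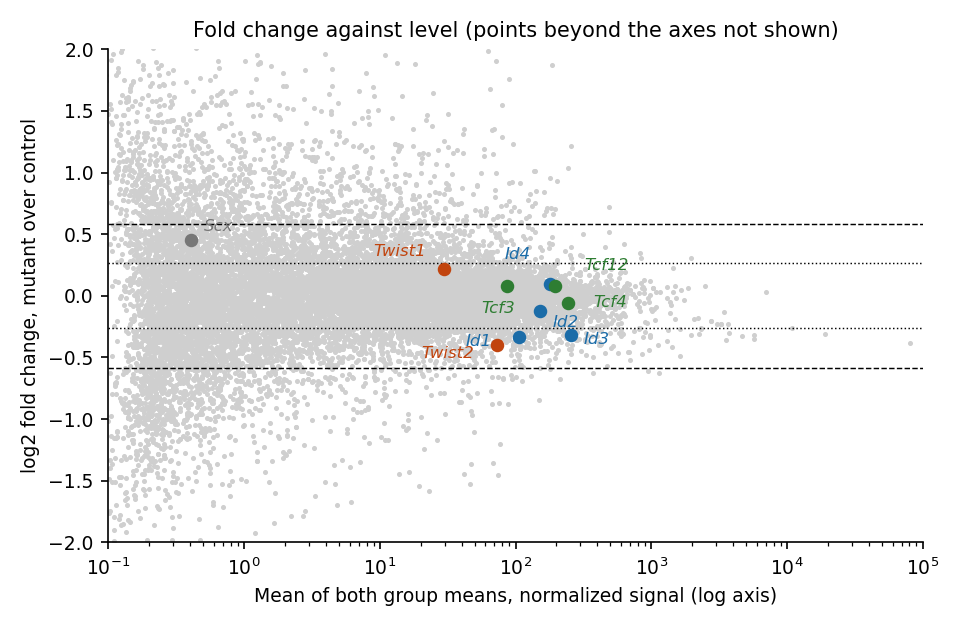
Log2 fold change of mutant over control (y axis) against the mean of both group means (x axis, normalized signal, log axis) for all genes in grey and the 10 members in colour, with dashed lines at 1.5-fold and dotted lines at 1.2-fold. *Id1*, *Id3* and *Twist2* lie just below the lower dotted line where 6.37% of genes with a mean of 10 or more are found, and *Scx* lies in the wide scatter of weakly expressed genes.

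Per kilobase of the longest coding transcript, the Id genes were the most abundant of the members in both groups. *Id3* led with 223.2 signal units per kilobase in the control and 178.6 in the mutant, followed by *Id1* with 102.7 and 81.3, *Id2* with 79.7 and 73.3 and *Id4* with 45.1 and 48.3. Summed over the 4 genes, the level per kilobase was 450.7 in the control and 381.5 in the mutant. The order of the 4 genes was the same in both groups, but the family's composition shifted. *Id3* made up 49.5% of the summed level in the control and 46.8% in the mutant, *Id1* made up 22.8% and 21.3%, and *Id4* made up 10.01% and 12.7%.

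*Id1* and *Id3* are expressed in endothelium as well as in mesenchyme, so markers of both were set beside them. The 7 endothelial markers were nearly level, with 5 higher and 2 lower, a median log2 fold change of 0.05 and summed signals of 355.4 and 360.3. Relative to *Cdh5*, the endothelial cadherin, *Id1* differed between the groups by -0.33 and *Id3* by -0.31 on the log2 scale. Of 9 dental mesenchyme markers, 8 were lower in the mutant, beside 49.5% of all genes, with a median log2 fold change of -0.31. *Col1a1*, *Col1a2*, *Vim* and *Pdgfra* had log2 fold changes of -0.31, -0.30, -0.28 and -0.20. The exception was *Igfbp6*, which the paper names as a marker of mesenchymal stem cells. Its mean was low, at 6.045 in the control and 9.60 in the mutant (0.67). *Gli1* went from 106.4 to 46.1, a log2 fold change of -1.21. *Gli1-CreER* is a knock-in that disrupts the *Gli1* allele carrying it, so the loss of transcript from that allele and a loss of *Gli1*-expressing cells cannot be told apart in this value. The ratio of *Id1* to *Col1a1* differed between the groups by -0.03 and that of *Id1* to *Pdgfra* by -0.14 on the log2 scale. For *Id3* the same ratios differed by -0.01 and -0.12. *Id1* and *Id3* were thus lower to about the degree of *Col1a1* and of the median mesenchymal marker, while the epithelial signal was higher in the mutant samples. Whether what sets these markers apart has a part in the values of the Id genes was not tested. Of the remaining marker lists, 5 of 5 macrophage, 2 of 5 perivascular, 1 of 5 glial and 1 of 4 skeletal muscle markers were higher in the mutant, with median log2 fold changes of 0.20, -0.17, -0.10 and -0.61.

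Since *Id1*, *Id2* and *Id3* are BMP targets, the other classical BMP-SMAD target genes were examined. Of 9 such genes, all with a mean of 10 or more, 7 had a lower and 2 a higher mutant mean. Of all genes at that level, 49.7% were lower. The median log2 fold change of the 9 targets was -0.15, beside -0.31 for the dental mesenchyme markers. Of the 9, 0 passed 1.5-fold, beside 3.06% of all genes at that level. The 3 that passed 1.2-fold were all lower, beside 6.37% of all genes at that level that were lower by over 1.2-fold. After scaling to the same total, *Smad9* was the one still past it on the lower side and *Nog* passed it on the higher side. *Smad9*, a receptor-regulated SMAD, went from 66.0 to 50.5 (log2 fold change -0.38). *Smad6*, an inhibitory SMAD induced as feedback, went from 125.7 to 102.0 (-0.30), and *Atoh8*, itself a helix-loop-helix factor, went from 13.4 to 11.1 (-0.27). *Id1* and *Id3* lay between *Smad9* and *Smad6*, the 2 lowest of the 9 targets, in the size of their difference. The paper compared BMP ligands and receptors in its bulk and single-cell RNA data and reported no significant change in BMP signaling. Whether BMP signaling has a part in the Id values was not tested. Not every target moved this way. *Nog*, which encodes the BMP antagonist noggin, went from 12.5 to 14.9 (0.26), *Bambi*, a decoy receptor, was level at 310.0 and 311.3, and *Smad7* went from 64.4 to 62.5. The homeobox genes *Msx1* and *Msx2* of dental mesenchyme had log2 fold changes of -0.15 and -0.21.

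Cyclin-dependent kinase inhibitors, several of which are known to be held down by Id proteins, were examined as well. Of 7 genes, 6 were higher and 1 lower, with a median log2 fold change of 0.14. Past 1.5-fold were 2 of the 7, beside 13.2% of all genes. Both were weakly expressed, namely *Cdkn2a* at 0.286 and 0.457 and *Cdkn2b* at 1.22 and 2.07. Among the 4 genes with a mean of 10 or more, 3 were higher and 1 lower. *Cdkn2c* went from 18.5 to 24.7 (log2 fold change 0.42) and *Cdkn1c* from 237.0 to 184.3 (-0.36). *Cdkn1a*, which encodes p21, and *Cdkn1b*, which encodes p27, had log2 fold changes of 0.14 and 0.02.

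Both Twist genes encode mesenchymal repressors and pair with E proteins, and their means moved in opposite directions. *Twist2* (chr1:91801461-91848028) had an authors' mean of 82.7 in the control and 62.7 in the mutant, a log2 fold change of -0.40 with a counting interval of -0.44 to -0.36. This was the largest difference among the members with a mean of 10 or more, and 6.46% of such genes differed at least as much. *Twist1* (chr12:33957671-33959829) had a mean of 27.4 in the control and 31.9 in the mutant, a log2 fold change of 0.22 with a counting interval of 0.15 to 0.29, and 16.9% of genes with a mean of 10 or more differed at least as much. The ratio of *Twist2* to *Twist1* was lower in the mutant, a difference of -0.62 on the log2 scale and the widest gap between 2 members of a family. Per kilobase, *Twist2* went from 32.8 to 24.8 and *Twist1* from 16.8 to 19.6, so that the share of *Twist2* in their sum went from 66.1% to 55.9%.

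*Twist2* is less certain than its depth implies. Its exons are overlapped on the other strand by the antisense gene *Gm29100* over 1477 bases, and 45.7% of the 50-base words in its exons also occur in that gene. Without knowledge of whether reads were counted by strand, which is not given in the sources used here, reads of the pair cannot be told apart. *Gm29100* itself was listed at 3.26 in the control and 2.58 in the mutant, a log2 fold change of -0.34. *Twist1* shares no such word with another gene. Relative to *Col1a1* and *Pdgfra*, *Twist2* differed by -0.09 and -0.20 on the log2 scale, and relative to *Cdh5* by -0.39.

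Of 7 mesenchymal transition factors known to act with Twist, 5 were lower and 2 higher in the mutant. Their median log2 fold change was -0.14, and none passed 1.5-fold, beside 3.06% of genes with a mean of 10 or more. *Snai1*, a zinc-finger repressor, went from 58.7 to 39.7 (log2 fold change -0.57), and *Prrx2*, a mesenchymal homeobox gene, from 45.1 to 36.8 (-0.29). Both passed 1.2-fold on the lower side, as *Twist2* did and as did 6.37% of genes with a mean of 10 or more. After scaling to the same total, *Prrx2* no longer passed and *Runx2* passed on the higher side. *Runx2*, the osteogenic factor that TWIST1 binds, went from 86.0 to 101.4 (0.24) and *Prrx1* from 181.8 to 191.5 (0.07), the same direction as *Twist1*. *Snai2*, *Zeb1* and *Zeb2* had log2 fold changes of -0.10, -0.19 and -0.14.

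**Figure D3:**
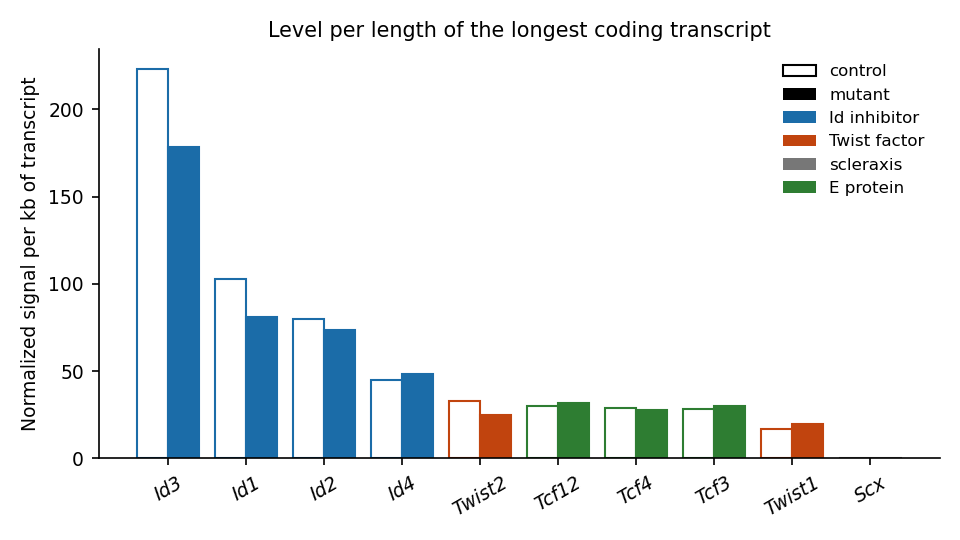
Level of the 10 genes in normalized signal per kilobase of the longest coding transcript (y axis), ordered by control level, with open bars for the control and filled bars for the *Arid1b* mutant. Bars are single group means without error; *Id3* stands at 223.2 and 178.6, the E-protein genes lie at 28.0 to 31.9, and *Scx* is too low to be seen.

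The E-protein genes, whose products pair with Id, Twist and SCX proteins, differed least of the members. *Tcf3* (chr10:80409514-80433647) had a mean of 83.5 in the control and 88.4 in the mutant, a log2 fold change of 0.08. *Tcf12* (chr9:71842688-72111871), which encodes HEB, went from 190.8 to 201.2, also 0.08. *Tcf4* (chr18:69343356-69689079), a gene distinct from the Wnt effector once known by the same name, went from 249.4 to 240.1, a log2 fold change of -0.06, which became 0.0055 when the groups were scaled to the same total. None of the 3 passed 1.2-fold, and 51.1%, 53.2% and 64.2% of genes with a mean of 10 or more differed at least as much as *Tcf3*, *Tcf12* and *Tcf4*. The ratio of *Tcf12* to *Tcf3* was level, differing by -0.0049 on the log2 scale.

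Per kilobase of the longest coding transcript, the 3 E-protein genes contributed nearly equal shares in the control, 32.3% from *Tcf3*, 33.2% from *Tcf4* and 34.5% from *Tcf12*, and in the mutant 33.3%, 31.1% and 35.5%. This equality depends on the length chosen. Over all exons merged, a choice made after the values were seen, *Tcf3* held 49.1% of the control sum and *Tcf4* 21.7%, the *Tcf4* length being 27.4 kb over merged exons and 8.58 kb in the longest coding transcript. The sum of the Id genes over the sum of the E-protein genes, both per kilobase, was 5.14 in the control and 4.24 in the mutant, a difference of -0.28 on the log2 scale. With merged exons the ratio was 8.83 and 7.25, again a difference of -0.28. The Id sum differed by -0.24 and the E-protein sum by 0.04 on the log2 scale, or by -0.23 and 0.05 with merged exons. Scaling the groups to the same total would add 0.061 to each of these differences and leave the ratio as it is.

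Among the other tissue-restricted partners of E proteins, few were measured at a useful level. Of 43 such genes, 13 were in the table and 2 had a mean of 10 or more. *Hand2*, a factor of the jaw and its teeth, had means of 142.4 and 115.8 (log2 fold change -0.30), and *Atoh8* is given above. The 13 genes comprised 9 higher and 4 lower, with a median log2 fold change of 0.17. *Hand1*, at 0.309 in the control and 0.184 in the mutant, and *Myf5*, at 0.112 and 0.251, passed 1.5-fold at means that correspond to few reads.

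*Scx* (chr15:76457452-76459458) was close to the limit of detection, with an authors' mean of 0.344 in the control and 0.472 in the mutant. These means correspond to about 37 and 58 reads over the 3 libraries of each group, and the counting interval of the log2 fold change of 0.46 runs from -0.14 to 1.12, so a difference between the groups was not detectable at this depth. The gene lies within an intron of *Bop1*, a ribosome biogenesis gene on the other strand with means of 22.4 and 23.9, so that reads of unspliced *Bop1* and of *Scx* cannot be told apart if strand was not used. Genes downstream of *Scx* or expressed with it in tendon and ligament were mixed. Of 9, 5 were higher and 4 lower with a median log2 fold change of 0.14. Past 1.5-fold were 4 of the 9, beside 13.2% of all genes. Among the 7 with a mean of 10 or more, 3 passed it, beside 3.06% of all genes at that level. *Egr1*, an early response factor, went from 7.96 to 14.7 (0.89) and *Thbs2*, a matrix protein, from 98.4 to 154.4 (0.65). *Fmod*, a collagen-binding proteoglycan also found in dental pulp and bone, went from 1140 to 748.8 (-0.61), and the weakly expressed *Kera* from 2.15 to 1.34 (-0.68). *Tnmd*, a tendon marker known to depend on *Scx*, was low, at 3.81 and 5.21.

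**Figure D4:**
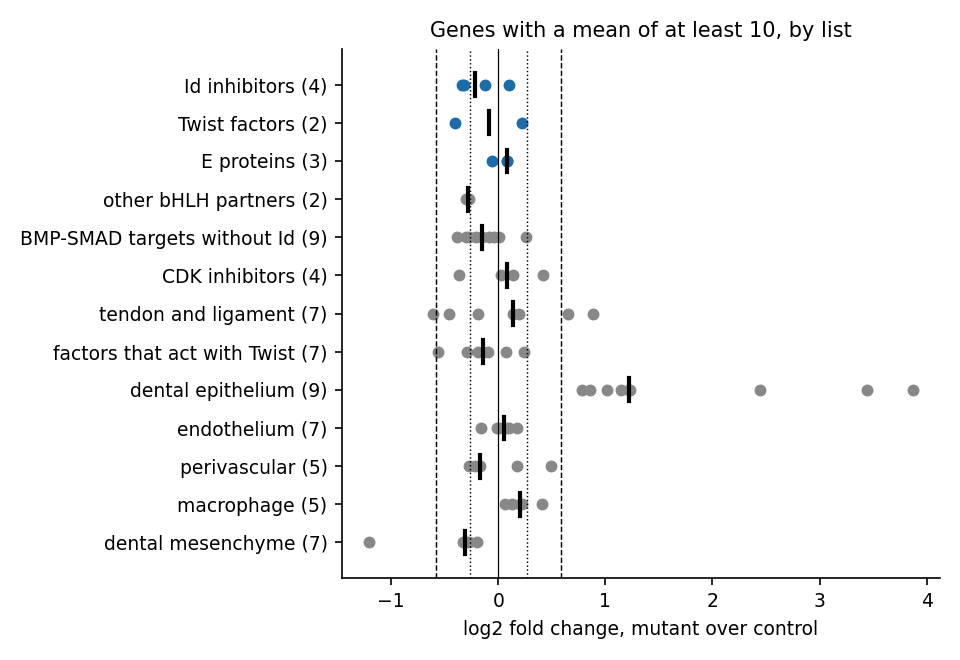
Log2 fold change of mutant over control (x axis) for genes with a mean of 10 or more in each family or list, with the number of genes in parentheses, a black bar at the median, dashed lines at 1.5-fold and dotted lines at 1.2-fold. Points are genes and not replicates; the Id median of -0.22 lies between those of the BMP-SMAD targets (-0.15) and the dental mesenchyme markers (-0.31), the E proteins lie near 0, and the dental epithelium markers lie far to the right with a median of 1.22.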

How the data were processed

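Reads were trimmed by the authors and aligned to mm10 (the submitters' processing notes name TopHat2 2.0.8), and the groups were compared in Partek Flow. How reads were counted is not given in the sources used here. The deposited values are a normalized signal, given per gene as the authors' mean of each group and per library as a summary over all genes. The same table holds the authors' p-values, FDR, ratios and fold changes, which were not used.

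Log2 fold changes were computed here from the group means (Python 3.11.15, numpy 2.4.6, pandas 2.3.3, scipy 1.17.1, matplotlib 3.10.9). The model planned for values per mouse could not be fitted, so no test was run, and no p-value is given. Genes were counted past 1.5-fold and 1.2-fold, over all genes and over those with a mean of 10 or more. The signal was read as reads plus 1, times a factor per library, which is an inference. Read numbers and exact Clopper-Pearson intervals rest on it, use 1 average factor per group and cover counting error only. Coordinates and lengths come from GENCODE vM21 (GRCm38, also named mm10) and promoters from RefSeq. The calculation was tested on simulated data. Members and lists were chosen with earlier results of these data known. From each list, the text names genes past 1.5-fold or, with none past it, past 1.2-fold, at most 5 among those with a mean of 10 or more; other list genes and markers were named after their values were seen. Some list genes are not reported here.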

Additional observations from a re-analysis of the deposited data

How the results depend on the processing

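The count of members past 1.5-fold was 0, and it was 0 as well at 2-fold, with genes of a mean of 10 or more only, after centring on the median of all genes, after scaling the groups to the same total and with the lowest mean subtracted. It became 4 at 1.2-fold, and 3 at 1.2-fold among genes with a mean of 10 or more, an alternative chosen after seeing the data. With scaling to the same total, added likewise, these counts were again 4 and 3, but *Id3* left and *Twist1* joined them, so that 2 members were lower and 2 higher in the first. The median log2 fold change of the members, 0.011, is close to 0 and changed sign readily. It was -0.055 with genes of a mean of 10 or more, where *Scx* drops out, 0.071 after scaling to the same total, which adds 0.061 to every gene, and -0.030 as a mean. Under centring, scaling and subtraction, *Tcf4* was the member that changed direction, under scaling. No paired analysis was possible because the table gives group means only, and for the same reason no mouse could be left out. The spread between mice is unknown here, so whether any difference exceeds it was not tested. At this depth counting error limits *Scx* alone among the members.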
